A study of Mus musculus with 23 samples.

Results

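The insulin-like growth factor (IGF) genes of the mouse heart were described as a set of 9 genes chosen by name, of 55487 genes in all: the ligands Igf1 and Igf2, the receptors Igf1r and Igf2r, and the binding proteins Igfbp3, Igfbp4, Igfbp5, Igfbp6 and Igfbp7. All 9 were measured in every library and passed the filter on low values in both models. IGF1 and IGF2 are secreted growth factors that signal through the IGF1 receptor, a tyrosine kinase that feeds into the insulin receptor substrates, AKT and MAP kinase. The IGF2 receptor, which is also the cation-independent mannose 6-phosphate receptor, takes IGF2 up for degradation. The binding proteins hold IGFs in the circulation and around cells, and proteases release the growth factor by cutting them. In the heart, IGF signalling is known for its part in cardiomyocyte growth and survival.

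Whole hearts were profiled by RNA sequencing of polyadenylated RNA in a pair of mouse models of HFpEF, the form of heart failure in which ejection fraction is preserved. In the first model, Leprdb/db mice, which lack the signalling form of the leptin receptor in all tissues and become obese and diabetic, had pumps put in at an age of 12 weeks that released aldosterone at 0.3 µg/h over 4 weeks (db/db+Aldo, n = 8, 4 females and 4 males), and wild-type mice of the same ages with pumps holding vehicle (saline with 5% ethanol) were the controls (sham, n = 7, 4 females and 3 males). In the second model, wild-type mice aged 10 weeks were started on food with 60 kcal% from fat and on L-NAME, which blocks nitric oxide synthases, at 0.5 g/L in the water, for 15 weeks (HFD+L-NAME, n = 4, 2 females and 2 males), and wild-type mice on standard chow were the controls (chow, n = 4, 2 females and 2 males). All mice were on the C57BL/6J background. Genotype and aldosterone were changed together, as were diet and L-NAME, so within a model these cannot be told apart. Each model was sequenced in its own run and compared with its own controls only.

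Libraries held 21258779 to 25692431 recovered counts. The mitochondrial genome took 30.0% to 42.7% of the counts in sham, 41.2% to 52.8% in db/db+Aldo, 47.0% to 50.2% in chow and 45.3% to 53.1% in HFD+L-NAME. The db allele changes splicing of the leptin receptor, so a count per gene does not check the genotype. A total of 5 libraries are in doubt. Sham replicate 1, labelled male, carried both the female transcript Xist (1358 normalised counts) and Y-linked transcripts (1325 normalised counts in sum), whereas every other library matched its labelled sex. Over all genes db/db+Aldo replicate 5 stood farther from the rest of its group than the others (median distance of 0.482 on the log2 scale, against 0.299 to 0.317). Sham replicate 7 had the lowest mitochondrial share. Chow replicate 4 and HFD+L-NAME replicate 4 held liver transcripts, with a liver marker sum of 3141 and 1111 normalised counts against 7.11 to 53.2 in the other libraries of that run. Results are given below with all libraries, and without these 5 where that changed a call.

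A total of 4 of the 9 genes changed in 1 model or the other: Igf1r, Igfbp4 and Igfbp5 with db/db+Aldo, and Igfbp3 with HFD+L-NAME. Their promoter windows are shown because these are the genes the results turn on and because Igfbp4 and Igfbp5 rose in the same comparison. Each window runs from 250 bases before to 50 bases after the gene's start in RefSeq, on the strand of the gene, from build GRCm38.p6: Igf1r at chr7:67952007-67952306 on the plus strand, Igfbp3 at chr11:7213874-7214173 on the minus strand, Igfbp4 at chr11:99040994-99041293 on the plus strand and Igfbp5 at chr1:72874816-72875115 on the minus strand. Capitals mark matches, on either strand, to the GC box GGGCGG, which 35.66% of 32851 windows of this length hold, and to the TATA box TATAAA, which 13.62% hold.
Igf1r: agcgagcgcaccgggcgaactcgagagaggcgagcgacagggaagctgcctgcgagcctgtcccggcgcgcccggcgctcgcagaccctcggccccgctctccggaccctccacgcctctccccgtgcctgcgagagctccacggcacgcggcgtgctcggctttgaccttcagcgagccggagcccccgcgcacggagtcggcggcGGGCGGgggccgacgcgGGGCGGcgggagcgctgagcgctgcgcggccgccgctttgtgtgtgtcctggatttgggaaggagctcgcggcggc
Igfbp3: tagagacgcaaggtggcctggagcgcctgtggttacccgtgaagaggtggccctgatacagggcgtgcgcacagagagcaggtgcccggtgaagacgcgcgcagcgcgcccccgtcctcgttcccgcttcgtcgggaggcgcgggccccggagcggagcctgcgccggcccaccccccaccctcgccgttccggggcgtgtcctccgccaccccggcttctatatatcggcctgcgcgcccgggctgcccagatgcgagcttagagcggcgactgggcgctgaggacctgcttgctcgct
Igfbp4: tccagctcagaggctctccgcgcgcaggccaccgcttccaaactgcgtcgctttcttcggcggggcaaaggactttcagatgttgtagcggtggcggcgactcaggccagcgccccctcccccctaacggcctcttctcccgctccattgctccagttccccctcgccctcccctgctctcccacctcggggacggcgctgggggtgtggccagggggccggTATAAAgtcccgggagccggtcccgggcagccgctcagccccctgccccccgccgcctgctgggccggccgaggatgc
Igfbp5: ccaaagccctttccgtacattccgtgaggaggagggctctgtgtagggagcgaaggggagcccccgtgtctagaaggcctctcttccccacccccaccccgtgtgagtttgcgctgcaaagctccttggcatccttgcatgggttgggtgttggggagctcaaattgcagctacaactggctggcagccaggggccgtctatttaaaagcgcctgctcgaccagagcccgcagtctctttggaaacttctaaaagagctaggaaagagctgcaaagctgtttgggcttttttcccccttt
The Igf1r window held 2 GC boxes and the Igfbp4 window 1 TATA box. The FOXO motif GTAAACA (in 3.65% of windows) and the steroid receptor half-site AGAACA (in 18.97% of windows) were searched in the same way and had no match in these 4 windows.

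The levels of the 9 genes differed widely once counts were divided by exon length. In sham hearts Igfbp7, a secreted protein of low IGF affinity that is abundant in vessels, was highest at 1961 ± 231 normalised counts per kb of exon (SD, n = 7). Igfbp5, a matrix-bound binding protein, followed at 600 ± 57 per kb, Igf2r at 428 ± 20 per kb and Igfbp4 at 303 ± 44 per kb. Igfbp6, which binds IGF2 in preference to IGF1, was at 168 ± 22 per kb and Igfbp3, the main carrier of IGFs in serum, at 126 ± 24 per kb. Igf1r stood at 31.6 ± 2.1 per kb and Igf1 at 24.4 ± 4.6 per kb, and Igf2 was lowest at 3.67 ± 1.07 per kb. The libraries of Igfbp6 and Igfbp3, and those of Igf1r and Igf1, overlapped in sham, while every other pair of neighbours in this order did not. In db/db+Aldo the order was the same except that Igf1 and Igf1r changed places, at 27.1 ± 5.3 and 26.3 ± 3.3 per kb (n = 8), again with overlapping libraries. In chow the mean of Igfbp4 (340 ± 45 per kb, n = 4) stood above that of Igf2r (277 ± 12 per kb), and in HFD+L-NAME Igfbp4 (328 ± 42 per kb) and Igf2r (260 ± 18 per kb) overlapped.

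**Figure D1:**
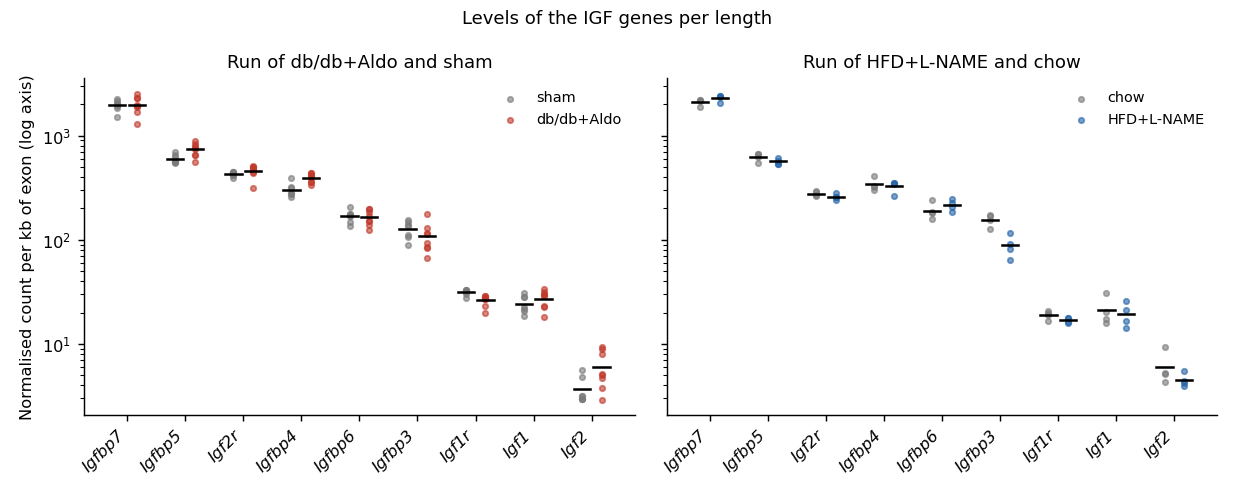
Normalised counts per kb of exon on a log axis for the 9 genes, ordered by their mean in sham, with 1 point per library and a line at the group mean. Igfbp7 lies at the top and Igf2 at the bottom in all 4 groups.

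The make-up of the binding protein transcripts can be given as shares of the summed level per kb of the 5 binding proteins. Igfbp7 made up 62.0% ± 2.7 of this sum in sham, 58.2% ± 4.9 in db/db+Aldo, 61.7% ± 1.3 in chow and 65.7% ± 2.6 in HFD+L-NAME. The share of Igfbp5 was 19.1% ± 1.8 in sham and 21.9% ± 3.1 in db/db+Aldo, and that of Igfbp4 was 9.58% ± 0.80 and 11.7% ± 1.7. In the other model Igfbp3 made up 4.58% ± 0.80 in chow and 2.54% ± 0.68 in HFD+L-NAME, where its range of 1.76% to 3.34% lay below the lowest chow library at 3.71%. The remaining binding proteins of the family, outside the 9 genes, were nearly absent from these hearts. Igfbp2 lay between 0 and 9.78 normalised counts in any library. Igfbp1, a liver product, had 4 reads in chow replicate 4, one of the libraries with liver transcripts, and 0 in every other library, where a count of 0 allows up to 3 reads.

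Among the ligands, Igf1, which lies on chromosome 10 from 87858265 to 87937042 (GRCm38, as are all positions here), showed no called change in either model. Sham libraries ran from 185 over a median of 222 to 308 normalised counts, and db/db+Aldo libraries from 180 over a median of 287 to 332. The groups lay over each other, and the log2 change, here and below on the scale of log2(normalised count + 1), was 0.15 ± 0.13 (SE, limma adjusted p = 0.469). Chow libraries, in replicate order, held 174, 307, 201 and 159 normalised counts and HFD+L-NAME libraries 253, 208, 163 and 140, a log2 change of −0.12 ± 0.16 (adjusted p = 0.798). In HFD+L-NAME both males lay above both females, while in chow the sexes overlapped, and no difference between the sexes was called (described below). P-values here measure the spread between the labelled samples, which the labels number without saying more of their origin.

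Igf2, the ligand gene that is expressed from the paternal allele and is known to be low after birth, was the least abundant of the 9. It lies on chromosome 7 from 142650766 to 142666816 and shares 3596 exon bases with the gene model Gm49394 on the same strand and 98 with the antisense gene Igf2os. Bases shared on the same strand cannot be told apart by strand. Sources used here do not say how reads on shared bases were counted or whether counting used strand. The level of Igf2, also per kb, is uncertain to that extent. Sham libraries ran from 16.9 over a median of 18.1 to 31.9 normalised counts, and db/db+Aldo libraries from 16.6 over a median of 29.3 to 53.0. A total of 3 db/db+Aldo libraries lay above every sham library and 1 lay below every sham library. The log2 change of 0.63 ± 0.24 was not called (adjusted p = 0.0696), and it was 0.75 (adjusted p = 0.0167) without db/db+Aldo replicate 5 and 0.80 (adjusted p = 0.0268) without the libraries in doubt. It also passed without sham replicate 1 (0.73, adjusted p = 0.0498), db/db+Aldo replicate 7 (0.73, adjusted p = 0.0440) or sham replicate 6 (0.72, adjusted p = 0.0458), so its call turned on single libraries. The authors' deposited table gives Igf2 a log2 fold change of 0.71 with an adjusted p of 0.0299. Chow libraries held 29.5, 53.1, 24.5 and 30.2 normalised counts and HFD+L-NAME libraries 31.5, 24.3, 22.8 and 25.1, a log2 change of −0.34 ± 0.23 (adjusted p = 0.549). Depth limits this gene, since all 7 sham libraries together held 163 reads of it.

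H19, the maternally expressed noncoding RNA that is imprinted jointly with Igf2, was set beside it by the gene lists. It rose in db/db+Aldo from 454 ± 93 (n = 7) to 1054 ± 239 normalised counts (n = 8), a log2 change of 1.21 ± 0.14 (adjusted p = 8.19e-06), and the lowest db/db+Aldo library (779) lay above the highest sham library (586). Groups did not overlap for 4.08% of all 14121 genes tested in the db/db+Aldo model. In the HFD+L-NAME model H19 was 517 ± 166 in chow and 423 ± 65 in HFD+L-NAME, with a log2 change of −0.25 ± 0.18 (limma adjusted p = 0.584). Across the 23 libraries, with each run centred on its mean, Igf2 and H19 had a Pearson r of 0.69, which was 0.56 with each group centred on its mean. This is a description over libraries that share their run and treatment.

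**Figure D2:**
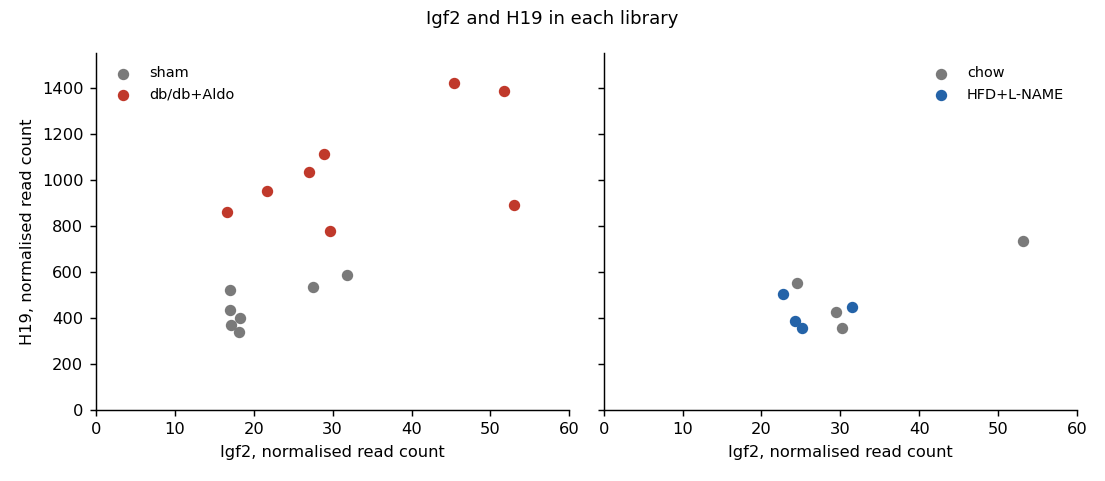
Normalised read counts of Igf2 (x axis) and H19 (y axis), 1 point per library, for the db/db+Aldo model (left) and the HFD+L-NAME model (right), with controls in grey. All 8 db/db+Aldo libraries lie above 778 normalised counts of H19 and all 7 sham libraries below 587, while their Igf2 values overlap.

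Of the receptors, Igf1r fell in db/db+Aldo by a small amount. The gene lies on chromosome 7 from 67952827 to 68233668 in GENCODE. The promoter window shown above follows the start in RefSeq and ends before the GENCODE start. Sham libraries ran from 463 over a median of 546 to 559 normalised counts and db/db+Aldo libraries from 329 over a median of 458 to 489. A total of 6 of the 7 sham libraries lay above every db/db+Aldo library, and sham replicate 2 (463) lay inside the db/db+Aldo range. The mean went from 531 ± 35 to 441 ± 55, a log2 change of −0.27 ± 0.08 or 0.828-fold (adjusted p = 0.0286), where 9.21% of all 14121 genes tested fell. The call was lost without sham replicate 1 (adjusted p = 0.0552), sham replicate 3 (0.0570), sham replicate 5 (0.0643), sham replicate 6 (0.0528) or db/db+Aldo replicate 7 (0.0628), with log2 changes between −0.24 and −0.26. Without the libraries in doubt it was −0.22 ± 0.07 (adjusted p = 0.0424). It was not called with the replicate number as a block (−0.28, adjusted p = 0.0630) or with the series of the library names as a covariate (−0.27, adjusted p = 0.0703). The labels name libraries in a 900s and a 2600s series and, for 2 db/db+Aldo libraries and no sham library, with a B. Their meaning is not given. The change was −0.04 (adjusted p = 0.883) among 4 sham and 2 db/db+Aldo libraries of the 900s. Both of the latter are labelled male, so with sex as a covariate this value sets them against sham replicates 1 and 2 alone. Without that covariate the difference of mean log2 levels in the 900s was −0.10. Among 3 sham and 4 db/db+Aldo libraries of the 2600s the change was −0.41 (adjusted p = 0.130). With HFD+L-NAME no change of Igf1r was called, at 315, 277, 334 and 351 normalised counts in chow and 295, 272, 296 and 266 in the treated libraries, a log2 change of −0.17 ± 0.09 (adjusted p = 0.386), and the difference between the models was −0.10 ± 0.13 (adjusted p = 0.744).

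Igf2r, on chromosome 17 from 12682406 to 12769664, changed in neither model with all libraries. Sham libraries ran from 3666 over a median of 3942 to 4189 normalised counts. In db/db+Aldo they ran from 2919 over a median of 4415 to 4698, with 5 of 8 libraries above every sham library and replicate 5 alone below all of them. The log2 change was 0.08 ± 0.09 (adjusted p = 0.550). Without db/db+Aldo replicate 5 it was 0.15 (adjusted p = 0.0395), and 0.18 with all libraries in doubt left out (adjusted p = 0.0353). Its direction turned where libraries were not scaled by size factors (−0.17), were scaled by total counts (−0.12) or were used as deposited (−0.22). The values with the other treatment were 2704, 2646, 2513 and 2464 normalised counts in chow and 2392, 2237, 2637 and 2415 in HFD+L-NAME, a log2 change of −0.09 ± 0.06 (adjusted p = 0.542).

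**Figure D3:**
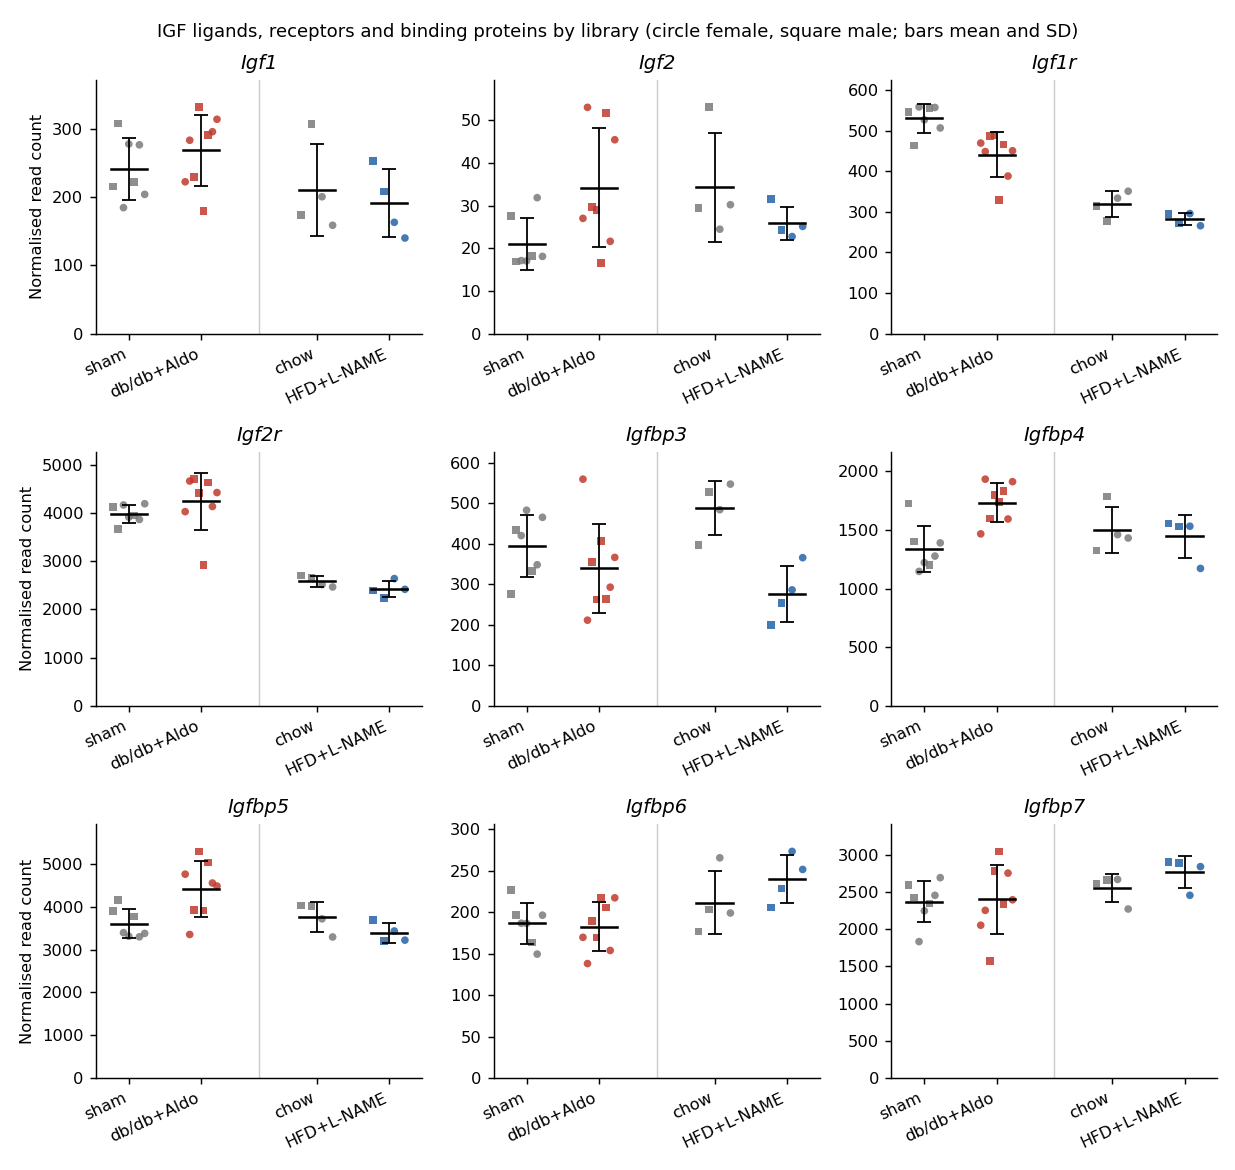
Normalised read counts of the 9 genes in each library (circles female, squares male, by label), with the mean and SD of each group in black and the models separated by a grey line. The db/db+Aldo values of Igfbp4 and Igfbp5 lie mostly above sham, those of Igf1r mostly below, and the 4 HFD+L-NAME values of Igfbp3 (199 to 365) lie below the 4 chow values (397 to 547).

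The binding proteins held the changes with the smallest p-values. Igfbp4, which binds IGFs in the extracellular space and is cut by the metalloprotease PAPP-A, lies on chromosome 11 from 99041244 to 99054392. Sham libraries ran from 1147 over a median of 1278 to 1725 normalised counts and db/db+Aldo libraries from 1467 over a median of 1767 to 1934. The highest sham value belonged to replicate 1, the library with transcripts of both sexes, and the other 6 sham libraries (up to 1402) lay below every db/db+Aldo library. The mean rose from 1338 ± 195 to 1734 ± 167, a log2 change of 0.37 ± 0.08 or 1.30-fold (adjusted p = 0.0036), where 9.96% of all genes tested rose. Without sham replicate 1 the change was 0.44 (adjusted p = 0.0007), and 0.47 ± 0.08 with all libraries in doubt left out (adjusted p = 0.0004). For the HFD+L-NAME model, Igfbp4 was 1324, 1787, 1461 and 1432 normalised counts in chow and 1557, 1530, 1532 and 1172 in HFD+L-NAME, a log2 change of −0.05 ± 0.10 (adjusted p = 0.866).

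Igfbp5, a binding protein that attaches to extracellular matrix, lies on chromosome 1 from 72857932 to 72874884. Sham libraries ran from 3298 over a median of 3396 to 4158 normalised counts and db/db+Aldo libraries from 3353 over a median of 4519 to 5292. A total of 5 of 8 db/db+Aldo libraries lay above every sham library, while replicate 2 (3353) lay near the bottom of the sham range. The mean rose from 3601 ± 340 to 4414 ± 646, a log2 change of 0.27 ± 0.08 or 1.21-fold (adjusted p = 0.0264). The call was lost without db/db+Aldo replicate 1 (adjusted p = 0.0524), replicate 6 (0.0509), replicate 7 (0.0559) or replicate 8 (0.0611), or without sham replicate 5 (0.0511), with log2 changes between 0.24 and 0.27. Without the libraries in doubt it was 0.31 ± 0.09 (adjusted p = 0.0198). In the HFD+L-NAME model Igfbp5 was 4032, 4021, 3718 and 3294 normalised counts in chow and 3694, 3207, 3434 and 3220 in HFD+L-NAME, a log2 change of −0.15 ± 0.07 (adjusted p = 0.312).

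The calls of Igfbp4 and Igfbp5 depended on how libraries were scaled. Without size factors the median of all genes moved by −0.27 in db/db+Aldo, and the change of Igfbp4 was 0.12 (adjusted p = 0.414) and that of Igfbp5 0.02 (adjusted p = 0.889), which is 0.39 and 0.29 above that median. Scaling by total counts moved the median by −0.22, with 0.17 for Igfbp4 (adjusted p = 0.165) and 0.07 for Igfbp5 (adjusted p = 0.568). Scaled by total counts without the genes of the mitochondrial genome, Igfbp4 rose by 0.36 (adjusted p = 0.00456). The call of Igfbp5 was also lost with quantile normalization (0.24, adjusted p = 0.0613), without the filter on low values (0.27, adjusted p = 0.0526) and with the replicate number as a block (0.24, adjusted p = 0.0966), where that of Igfbp4 held (0.33, adjusted p = 0.0235). Among the libraries of the 900s neither was called (Igfbp4 0.12, adjusted p = 0.642, Igfbp5 0.18, adjusted p = 0.520), and among those of the 2600s Igfbp4 was (0.46, adjusted p = 0.0441) and Igfbp5 was not (0.36, adjusted p = 0.114). In the 900s the sex covariate again leaves a comparison of males only. Without it the differences of mean log2 levels there were 0.32 for Igfbp4 and 0.31 for Igfbp5.

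Marker transcripts of several cell types differed in the same comparison. The summed level of 13 fibroblast markers ran from 41156 to 48074 normalised counts in sham and from 49886 to 58883 in db/db+Aldo (exact permutation test, 2-sided, adjusted p = 0.00117 over 15 lists), and 7 of the 13 rose, where 9.96% of all genes did, among them Dpep1 (log2 change 0.95) and Mfap5 (0.65). Sums of epicardial markers (11 genes, 649 to 881 against 760 to 1343, adjusted p = 0.0131) and endothelial markers (15 genes, 26152 to 30901 against 28240 to 32623, adjusted p = 0.0277) were higher and that of cardiomyocyte markers (12 genes, adjusted p = 0.0239) lower in db/db+Aldo by the same exact test. In none of these 4 lists was a marker under 3 normalised counts in every library. The sums weigh each marker by its level. Singly, 3 of the 15 endothelial markers rose and 2 fell, with a median log2 change of 0.04. Of 11 epicardial markers 1 rose and 0 fell, and of 12 cardiomyocyte markers 0 rose and 3 fell. Over all genes tested, 9.96% rose and 9.21% fell. The sum of adipocyte markers (10 genes) was 3675 to 4828 in sham and higher in db/db+Aldo at 4686 to 7654 (adjusted p = 0.00233, exact test). Lep, the leptin gene, was under 3 normalised counts throughout. Singly, 4 of the 10 passed the filter on low values, of which 2 rose and 2 fell, with a median log2 change of −0.61. Fabp4, among the risers, is also in the endothelial list. Activated fibroblast and matrix markers (12 genes) summed to 6463 to 7463 in sham and 3984 to 7737 in db/db+Aldo, with a lower mean in db/db+Aldo (7155 ± 318 against 6142 ± 1357) that did not pass the exact test (adjusted p = 0.0950). Singly, most went the other way: of 11 tested, 6 rose and 1 fell, with a median log2 change of 0.68. The faller, Acta2, is also in the list of mural and smooth muscle markers. The part of these cell types in the changes of Igfbp4 and Igfbp5 was not tested, and in whole hearts more cells of a type and more RNA per cell cannot be told apart.

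Igfbp3 fell in HFD+L-NAME, and was the only one of the 9 whose groups did not overlap in either model (4.08% of all genes tested did not overlap in the db/db+Aldo model). The gene lies on chromosome 11 from 7206086 to 7213923. Chow libraries held 397, 528, 484 and 547 normalised counts and HFD+L-NAME libraries 199, 254, 286 and 365. Every HFD+L-NAME library lay below every chow library, as was the case in the lower direction for 4.24% of all 13801 genes tested. The mean went from 489 ± 67 to 276 ± 70, a log2 change of −0.85 ± 0.13 or 0.556-fold (adjusted p = 0.00558), where 1% of all genes tested fell by that test. Without the libraries with liver transcripts, which leaves 3 in each group, it was −0.93 ± 0.14 (adjusted p = 0.0198). It was called under every alternative run on this comparison, with log2 changes between −0.73 and −0.95 and adjusted p-values up to 0.0362. The authors' deposited table gives it a log2 fold change of −0.82 with an adjusted p of 7.93e-05. With 4 libraries against 4 the exact 2-sided test of a marker sum cannot give a p below 0.0286, so a single list could not pass after adjustment over 15 lists, and its result says nothing here. The sums of 2 lists did not overlap between the groups. Adipocyte markers summed to 4183 to 4878 normalised counts in chow and 5410 to 7139 in HFD+L-NAME, and Schwann cell and neuronal markers to 330 to 464 and 223 to 292 (exact p = 0.0286 and adjusted p = 0.214 for both). Fibroblast markers summed to 34842 to 44177 in chow and 40240 to 43090 in HFD+L-NAME, and endothelial markers to 24091 to 28581 and 27496 to 32279. Singly, of 4 tested adipocyte markers 1 rose, Fabp4, which is also in the endothelial list, and 0 fell. Of 6 tested Schwann cell and neuronal markers 0 rose and 2 fell. Of 15 endothelial markers 3 rose and 0 fell, as was so for 15 macrophage markers. Among 10 tested activated fibroblast and matrix markers 2 rose and 0 fell. None of 13 fibroblast markers was called. Of all 13801 genes tested 163 rose and 138 fell. The part of these cell types in the fall of Igfbp3 was not tested.

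In db/db+Aldo, Igfbp3 ran from 211 over a median of 324 to 559 normalised counts, against 276, 420 and 482 in sham. The groups overlapped, the highest library of all 15 being db/db+Aldo replicate 1, and the log2 change was −0.24 ± 0.16 (adjusted p = 0.345). It was called lower only where libraries were not scaled by size factors (−0.49, adjusted p = 0.0244) or were scaled by total counts (−0.44, adjusted p = 0.0435), against a shifted median of all genes.

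Igfbp6 and Igfbp7 changed in neither model. Igfbp6, on chromosome 15 from 102144362 to 102149511, ran from 149 over 186 to 227 normalised counts in sham and from 138 over 180 to 218 in db/db+Aldo (log2 change −0.05 ± 0.10, adjusted p = 0.790). In the HFD+L-NAME model it was 177, 203, 265 and 199 in chow and 205, 228, 273 and 251 in HFD+L-NAME, with 3 of 4 chow libraries below every HFD+L-NAME library and a log2 change of 0.19 ± 0.11 (adjusted p = 0.437). Igfbp7, on chromosome 5 from 77349240 to 77408041, shares 85 exon bases with Polr2b on the other strand. It ran from 1834 over 2426 to 2693 in sham and from 1575 over 2369 to 3046 in db/db+Aldo, where the spread was wider (SD 279 against 465), with a log2 change of −0.00 ± 0.12 (adjusted p = 0.993). In chow it was 2613, 2665, 2670 and 2272 and in HFD+L-NAME 2904, 2891, 2456 and 2842 normalised counts, a log2 change of 0.12 ± 0.07 (adjusted p = 0.447).

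**Figure D4:**
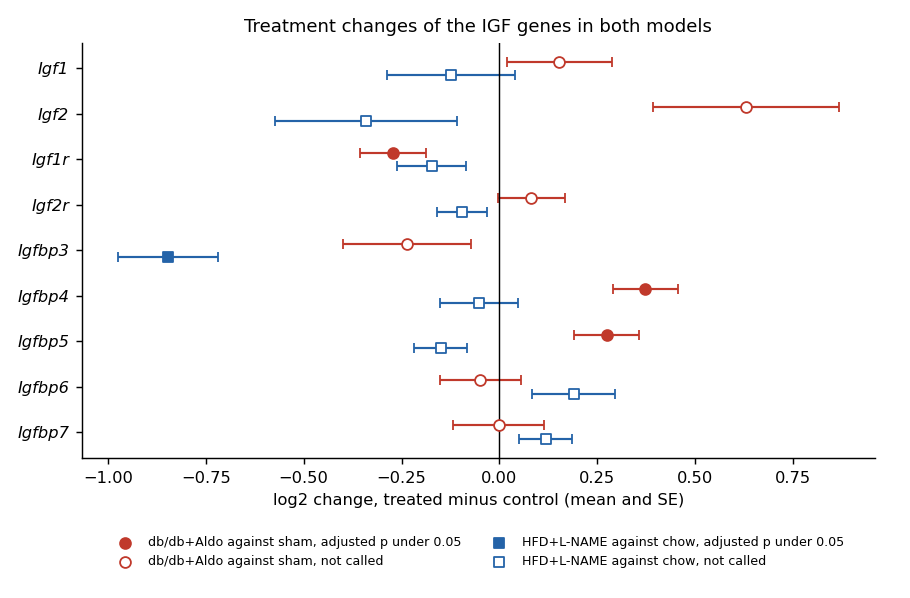
Log2 change (treated minus control) with its standard error for the 9 genes, in db/db+Aldo against sham (red circles) and HFD+L-NAME against chow (blue squares). Filled symbols have an adjusted p under 0.05, which holds for Igf1r, Igfbp4 and Igfbp5 in the first comparison and for Igfbp3 in the second.

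Over both models, 3 of 9 members were called in db/db+Aldo, where 19.2% of all genes tested were called, and 1 of 9 in HFD+L-NAME, where 2.18% were called. The median log2 change of all genes tested was −0.02 in the first and −0.00 in the second. The treatment effects themselves were compared in a single fit of all 23 libraries, in which 5.55% of 13589 genes were called. Run, age and treatment changed together between the models and cannot be told apart in this comparison. Igfbp5 differed, with the change in db/db+Aldo exceeding that in HFD+L-NAME by 0.42 ± 0.13 on the log2 scale (adjusted p = 0.0462). This call rests close to the threshold: leaving out 1 library gave adjusted p-values above 0.05 for 18 of the 23 libraries, with differences between 0.37 and 0.47. Without the 5 libraries in doubt it was 0.50 ± 0.14 (adjusted p = 0.0488). For Igfbp4 the difference was 0.42 ± 0.14 (adjusted p = 0.0738), and it passed without sham replicate 1 (0.48, adjusted p = 0.0290) or without chow replicate 1 (0.50, adjusted p = 0.0417). The fall of Igfbp3 in HFD+L-NAME was not shown to differ from its change in db/db+Aldo (difference 0.61 ± 0.26, adjusted p = 0.173), nor was the change of Igf2 (0.96 ± 0.38, adjusted p = 0.148), although leaving out db/db+Aldo replicate 5 took the latter to 1.09 (adjusted p = 0.0480).

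No member differed between females and males within any group, and no treatment effect on a member differed between the sexes, at an adjusted p of 0.05 over all genes by limma. By the same test 0.0637% of all genes were called between the sexes in sham, 0.0567% in db/db+Aldo, 0.109% in chow and 0.254% in HFD+L-NAME, and 0% and 0.00725% for the sex by treatment term in the db/db+Aldo and HFD+L-NAME models. At an unadjusted p under 0.05 the count was 2 member contrasts, both within HFD+L-NAME. By the same cut 1573 of all 13801 genes tested passed between the sexes in HFD+L-NAME. There Igf1 was lower in females (163 and 140 normalised counts) than in males (253 and 208), a log2 change of −0.60 ± 0.23 (limma adjusted p = 0.356). Igfbp3 was higher in females (286 and 365) than in males (199 and 254), a log2 change of 0.52 ± 0.17 (limma adjusted p = 0.265). With 2 libraries of each sex these values describe those hearts. The comparison within sham rests on sham replicate 1 as labelled.

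The genes around the IGF system were taken from lists set by function, and their counts in db/db+Aldo stand beside 9.96% of all genes tested that rose and 9.21% that fell. Outside the 9 genes, Igfals, the acid-labile subunit that extends the life of IGF1 in blood, fell from 172 ± 34 to 104 ± 26 normalised counts (log2 change −0.73 ± 0.15, adjusted p = 0.00221). Insr, the insulin receptor, was 2722 ± 273 in sham and 2682 ± 473 in db/db+Aldo (log2 change −0.03, adjusted p = 0.861). Of 13 tested genes for binding protein proteases and their inhibitors, 5 rose and 1 fell. Stc1, an inhibitor of PAPP-A, rose from 40.1 ± 17.2 to 98.5 ± 26.9 (log2 change 1.38 ± 0.21, adjusted p = 0.00014). Plat, tissue plasminogen activator (0.43), Mmp2, gelatinase A (0.44), and Htra3, a secreted serine protease (0.41), rose as well. Pappa itself, the protease that cuts IGFBP4, stood at 12.0 ± 4.4 and 11.9 ± 4.8 normalised counts (log2 change −0.06, adjusted p = 0.901). Without the libraries in doubt, 0 of these 13 fell.

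Within the IGF1 receptor signalling list of 38 tested genes, 3 rose and 7 fell in db/db+Aldo, against 9.96% and 9.21% of all genes tested. The insulin receptor substrate Irs1 fell from 478 ± 52 to 179 ± 58 normalised counts (log2 change −1.45 ± 0.16, adjusted p = 5.22e-06), and Irs2 fell from 693 ± 289 to 315 ± 70 (−1.10 ± 0.17, adjusted p = 0.00021). Eif4ebp1, the translation repressor that mTORC1 inhibits, rose by 0.51 ± 0.08 and Tsc1, an inhibitor of mTORC1, fell by 0.40 on the log2 scale. The median change of the list was 0.01. Among 11 tested genes of the growth hormone axis 2 rose and 3 fell: Cish, an inhibitor of growth hormone signalling induced by STAT5, went from 1346 ± 292 to 820 ± 61 (−0.69 ± 0.11, adjusted p = 0.00018), Socs1 fell by 0.68, Socs3 rose by 0.34 and Ptpn6, a phosphatase, rose by 0.41 on the log2 scale. The number that rose in this list did not hold without size factors, with total-count scaling or without the libraries in doubt. The growth hormone receptor Ghr was 2555 ± 170 and 2699 ± 324 (0.08, limma adjusted p = 0.551). Of 18 tested FOXO factors and targets 5 rose and 2 fell, with Pdk4, a kinase that limits glucose oxidation (1.52), Cdkn1a (0.69), Cited2 (0.68) and Foxo6 (−1.08) having the smallest p-values.

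Among 16 tested imprinted growth genes 4 rose and 1 fell in db/db+Aldo, where 9.96% of all genes tested rose and 9.21% fell. Beside H19, Sgce (0.37) and Ndn (0.54) rose, and Cdkn1c, a cell cycle inhibitor expressed from the maternal allele, fell from 193 ± 24 to 127 ± 31 normalised counts (log2 change −0.64 ± 0.12, adjusted p = 0.00072). Of 9 tested partners of the mannose 6-phosphate receptor 1 rose, the sorting adaptor Gga2 (0.33), and 4 fell, among them Gga1 (−0.38), Gnptab, a subunit of the enzyme that makes the mannose 6-phosphate tag (−0.29), and Gga3 (−0.24). Of 8 tested CCN and related secreted proteins, which share a binding protein domain with the IGFBPs, 4 rose and 0 fell: Ccn1 (0.75), Ccn2 (0.74), Kazald1 (0.64) and Ccn4 (0.55). The median change of these 8 was 0.43, against −0.02 over all genes. The 1 tested gene for an IGF2 mRNA-binding protein was not called in either model.

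In HFD+L-NAME 2.18% of all genes tested were called. Adam12, a metalloprotease known to cut IGFBP3 and IGFBP5, rose from 20.4 ± 3.9 to 61.3 ± 30.8 normalised counts (log2 change 1.42 ± 0.26, adjusted p = 0.0153) and Mmp2 by 0.43 (adjusted p = 0.0365), as the 2 risers among 13 tested protease genes, with 0 fallers. Pdk4 rose by 1.91 and Ptpn6 by 0.73, while Akt1 fell by 0.37 on the log2 scale. Irs1 was 228 ± 6 in chow and 209 ± 43 in HFD+L-NAME (−0.14, adjusted p = 0.679), and Irs2 513 ± 180 and 849 ± 294 (0.71, adjusted p = 0.204). The treatment effects differed between the models for Irs1 (difference −1.31 ± 0.25, adjusted p = 0.00249) and Irs2 (−1.79 ± 0.36, adjusted p = 0.00349), as they did for H19 (1.45 ± 0.25, adjusted p = 0.00102) and the protease Htra3 (0.65 ± 0.13, adjusted p = 0.00261). Igfals was 153 ± 10 and 120 ± 15 (−0.35, adjusted p = 0.130) and Insr 1823 ± 194 and 1510 ± 66 (−0.27, adjusted p = 0.114). Without the libraries with liver transcripts, which leaves 3 in each group, 0 of the 13 protease genes, 0 of the growth hormone axis and 0 of the receptor signalling list were called.

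**Figure D5:**
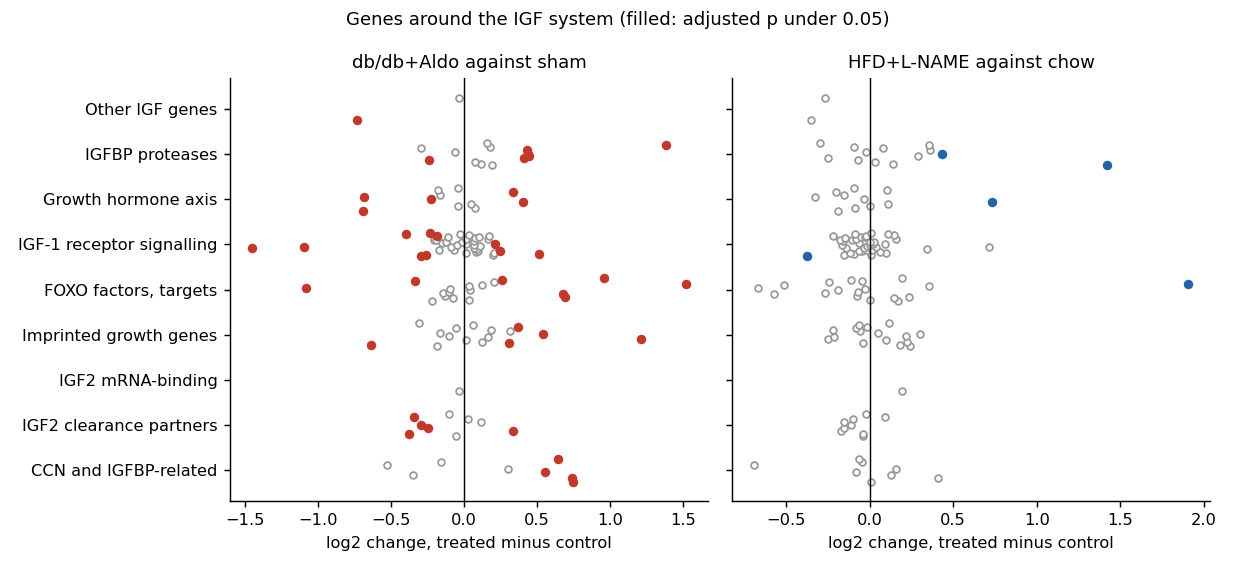
Log2 change (treated minus control) of each tested gene in 9 lists around the IGF system, in db/db+Aldo against sham (left) and HFD+L-NAME against chow (right), with filled points for an adjusted p under 0.05. The lowest points at left in the receptor signalling list are Irs1 (−1.45) and Irs2 (−1.10).

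Among 10471 genes whose mean reached 50 normalised counts in both models, those whose log2 levels followed each member most closely over the 23 libraries, with each run centred on its mean, were as follows. Igfbp4 went with Fbln5, fibulin 5 (Pearson r = 0.90), and Plvap, a protein of endothelial diaphragms (r = 0.89). Igf2r went with Peak1 and Ubr2 (r = 0.89 for both), Igf1r with Ank2, ankyrin B, and Abcc9, a subunit of potassium channels (r = 0.87 for both), and Igfbp7 with Vim, vimentin (r = 0.84), and Arpc3 (r = 0.79). For Igf2 these were F11r and Rgl1 (r = 0.81 for both), for Igfbp3 Bckdhb, of branched-chain amino acid breakdown (r = 0.80), and Sdha, of succinate dehydrogenase (r = 0.79), and for Igfbp5 Enpp2, autotaxin, and Hacd4 (r = 0.79 for both). Igf1 went with Atl3 (r = 0.77) and Btg1 (r = 0.76), and Igfbp6 with Ggnbp2 (r = 0.72) and Gcsh (r = 0.70). With each group centred on its own mean, the r of Bckdhb and Igfbp3 was 0.69 and that of Fbln5 and Igfbp4 was 0.83. These values are the highest of many over libraries that share run, treatment and scaling, and are given as a description.

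Within the 9 genes, Igf2 and Igfbp4 were the closest pair on the run-centred scale (r = 0.68), and were at 0.52 with each group centred on its own mean. Igf2 and Igf2r were at 0.61 and 0.57, Igf1 and Igf2 at 0.54 and 0.51, and Igf1r and Igf2r at 0.40 and 0.68 on these scales. Igf2r and Igfbp7 ran in opposite directions, at −0.49 and −0.48, as did Igf1r and Igfbp7, at −0.47 and −0.57. In db/db+Aldo replicate 5, a library in doubt, Igf1r (329) and Igf2r (2919) were lowest and Igfbp7 (3046) highest of its group. These r values include it.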

How the data were processed

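RNA was taken from whole hearts and sequenced as polyadenylated paired-end libraries, per the labels' protocols. Named in the submitters' processing notes, without their roles, are GRCm38, mm10, limma, featureCounts and DESeq2. Aligner, versions, annotation and use of strand: not given in the sources used here. A run-corrected table was deposited by the authors with 55487 genes, whose values are a score: within a run a gene's values differed by whole numbers in 100% of genes and 10.2% of values lay below 0, which is how whole counts look once an offset for each gene and run is subtracted. The authors' comparison tables hold, per the file headers, a mean signal over libraries, a test statistic, which is also a score, an unadjusted and adjusted p-value, and the log2 fold change and its error. The deposited values had been assumed to be of another kind, so the test was fitted to what they are.

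Counts were recovered for 52392 genes, taking size factors from genes read once and each gene's offset from the mean signal the authors deposited (99.98% of genes solved to a whole lowest count in the db/db+Aldo model and 100% in the other, tolerance 0.001). Another 3095 genes were left out. They were scaled by these size factors, and log2(value + 1) was taken. Within a model, limma 3.58.1 (R 4.3.3) tested genes whose mean reached 10 (trend, sex as covariate, Benjamini-Hochberg adjustment over all genes, threshold 0.05). The difference between models used 1 fit of all 23 libraries, and sex contrasts a fit of group by sex. Marker sums were compared by exact permutation tests over all assignments of the group labels, in Python 3.11.15 with numpy 2.4.6. The fits were tested on simulated counts. Count models other than limma voom were not run. Positions and exon lengths came from GENCODE M21, promoters from RefSeq.

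The 9 genes and the 9 pathway and 16 marker and quality lists were chosen with earlier results of these data known. Named were the 9 genes, in each pathway list the 4 called genes with the smallest p per comparison, with Igfbp1, Igfbp2, Igfals, Ghr, Insr, H19 and Pappa in any case, at most 2 called genes per marker list, and the 2 genes most like each member. Plots used matplotlib 3.10.9. Precision differs by gene, since it rests on 163 reads of Igf2 but 31130 of Igf2r over the 7 sham libraries. Among marker lists not described in the results, the sums that passed the exact test in db/db+Aldo were higher for Schwann cell and neuronal (adjusted p = 0.00117), macrophage (0.0159) and immediate early genes (0.0466) and lower for liver (0.0117), skeletal muscle (0.0216) and mural and smooth muscle (0.0298). Those that did not were lymphocyte (0.508), atrial (0.970) and red blood cell markers (0.245). Singly, 3 of 11 tested immediate early genes rose and 3 fell. Of 6 tested Schwann cell and neuronal markers 1 rose and 0 fell, and of 15 macrophage markers 6 rose and 0 fell. None rose of the tested liver (1 of 1 fell), skeletal muscle (2 of 3 fell) and mural and smooth muscle markers (2 of 11 fell). Of all genes tested 9.96% rose and 9.21% fell.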

Additional observations from a re-analysis of the deposited data

Results flagged for a closer look

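The change of Igfbp5 in db/db+Aldo exceeded that in HFD+L-NAME by 0.42 on the log2 scale (limma adjusted p = 0.0462). Among 36 pairs of a gene and a group, 4 had a library far from the rest of its group by Dixon's test, where chance gives about 5%. Igf2r was 2919 normalised counts in db/db+Aldo replicate 5, against 4025 in the nearest library, and that library also stood apart over all genes. Igfbp4 was 1172 in HFD+L-NAME replicate 4, against 1530 in the nearest, and Igfbp7 was 2272 in chow replicate 4, against 2613. Both of these libraries held liver transcripts. Igfbp7 was 2456 in HFD+L-NAME replicate 3, against 2842 in the nearest library.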

How the results depend on the processing

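With all choices as described, 2 of the 9 genes rose and 1 fell in db/db+Aldo, 1 fell in HFD+L-NAME, and 1 differed between the models. In HFD+L-NAME these counts were the same under all alternatives run. In db/db+Aldo the number that rose was 0 with no size factors, total-count scaling or the deposited run-corrected values, and for the libraries named in the 900s alone, 1 without a filter, with quantile normalization and with those named in the 2600s alone, and 4 without the libraries in doubt, an alternative chosen after seeing the data. The number that fell was 2 when unscaled or scaled by total counts, and 0 with the name series as a covariate or with either series alone, where fewer libraries were fitted. Library names in the 900s and 2600s, and those with a B, are the labels' own, and their meaning is not given. The names with a B belong to db/db+Aldo replicates 1 and 2, and no sham library has such a name. Neither fit of a single series holds these 2 libraries. Leaving out 1 library gave 1 to 4 risers and 0 to 1 fallers, and 0 to 2 genes that differed between models. That last count was 0 unscaled, scaled by total counts or without the sex covariate. Shared replicate numbers were not taken to pair samples, as not every same-numbered pair's deviations correlated above 0.1: they ran from −0.219 to 0.115 in the db/db+Aldo model and from 0.093 to 0.385 in the other, where all 4 were positive and 2 of 4 treated libraries correlated best with their own number. With the replicate number as a block, 1 gene (Igfbp4) rose and 0 fell in db/db+Aldo. Causes of these differences were not tested.

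Changes that reversed were all uncalled. In db/db+Aldo, Igf1 was −0.10 (no size factors), −0.049 (total counts) and −0.11 (as deposited) and Igf2r −0.17, −0.12 and −0.22 in the same order. Igfbp6 was 0.032 with the name series as covariate and 0.21 in the 2600s, and Igfbp7 0.0017 without the sex covariate, 0.074 in the 2600s and 0.015 without the libraries in doubt. Leaving out 1 library, Igfbp7 ran from −0.058 to 0.085 and Igfbp6 from −0.11 to 0.0015 there, and in HFD+L-NAME Igf1 from −0.31 to 0.017 and Igfbp4 from −0.15 to 0.036. Igfbp4 was 0.026 in HFD+L-NAME without the libraries in doubt. The Igf2r difference between models was −0.030 unscaled and −0.037 scaled by total counts. With total-count scaling, female against male values reversed for Igf1 (9.5e-05) and Igf2 (0.066) in sham, Igfbp4 (0.00010) and Igfbp7 (0.012) in db/db+Aldo, and Igf1r (0.099) and Igfbp5 (0.065) in HFD+L-NAME, and the sex by treatment values of Igf2r (−0.032) in db/db+Aldo and of Igfbp4 (0.00061), Igfbp6 (0.11) and Igfbp7 (0.081) in HFD+L-NAME. Of 36 counts over the pathway lists, 14 moved when unscaled, 13 when scaled by total counts and 5 without the libraries in doubt.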
